A study of Mus musculus with 15 samples.

Results

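The ZIP zinc transporters are the proteins of the Slc39a gene family. The genes described here are Slc39a1, Slc39a4, Slc39a6, Slc39a7, Slc39a8, Slc39a9, Slc39a10, Slc39a11, Slc39a13 and Slc39a14, chosen by symbol: 10 of the 18193 mouse genes that had at least 1 probe set carrying a single gene symbol. They had 20 such probe sets of 34945. All 10 genes and 19 of the 20 probe sets passed the filter on dim signals (a log2 signal of 4 or more on at least 3 of the 15 arrays), as did 16294 genes overall. The list was drawn up with earlier results of these arrays known. Its calls are therefore given as a description, beside the share called over all genes, and support nothing further. On the brightest probe set of each gene, the listed gene with the lowest mean over the 15 arrays was Slc39a13 at 7.88. The 4 family genes that were not listed lay below it, with Slc39a3 at 7.06, Slc39a5 at 6.16, Slc39a2 at 5.04 and Slc39a12 at 3.25. Probe sets differ in how brightly they bind, so this order does not rank mRNA amounts.

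RNA came from primary hepatocytes of C57BL/6 mice, kept in the serum-free medium HepatoZYME-SFM and infected with adenovirus, and was read on Affymetrix Mouse Genome 430 2.0 arrays, with 5 groups of 3 arrays. For 48 hours the cells carried a virus for EGFP (the control), for wild-type IRE1a, or for S724A IRE1a, a serine-to-alanine substitution in the kinase part of the protein; these cells had no further treatment. The other cells carried a control hairpin virus (shCON) or a hairpin virus against IRE1a (shIRE1a) for 72 hours, and both of those groups then received glucagon for 4 hours. Every group was thus infected, no group was left without virus, and each IRE1a hairpin result comes from 1 hairpin under glucagon. The series describes its 3 experiments as independent; how many mice were used, and their age, is not stated in the labels. Virus type, time and glucagon differ together between the 48-hour and 72-hour arms and cannot be told apart.

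ZIP proteins carry zinc into the cytosol, either from outside the cell or out of organelles and vesicles, and several also carry iron, manganese or cadmium. The ZnT proteins of the Slc30a family move zinc the opposite way, and metallothioneins bind the zinc that is held in the cytosol. In the liver, ZIP14 takes up zinc, manganese and iron that is not bound to transferrin. IRE1a, encoded by Ern1, is a sensor of the unfolded protein response in the membrane of the endoplasmic reticulum, with a kinase part and an RNase part that splices Xbp1 mRNA. Glucagon is the fasting hormone that acts on hepatocytes through cyclic AMP.

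Median signals of the 15 arrays lay between 5.69 and 5.83 on the log2 scale. Ern1, the targeted gene, had signals of 8.89, 8.96 and 9.10 with the control hairpin and 7.60, 7.44 and 7.51 with the IRE1a hairpin. It fell by 1.47 ± 0.19 (log2 difference ± SE, limma adjusted p = 0.00293), or by 0.56 when all its probe sets were averaged. Ern1 differed from EGFP by 0.12 with the wild-type virus and by 0.46 with the S724A virus and was called in neither (adjusted p = 0.775 and 0.159). Whether its probe set also reads the message made from the viruses is not known here. The hepatocyte genes Alb, Ttr, Apoa1, Tat and Cps1 had mean signals from 11.5 to 14.3. Of the macrophage genes, Cd68 and Cd14 averaged 11.7 and 11.7, Csf1r 6.80, Lyz2 6.21, Adgre1 5.33 and Clec4f 5.30. The summed macrophage level of the 6 genes was 12.52 to 12.72 with EGFP, 12.88 to 13.14 with wild-type IRE1a and 12.99 to 13.31 with S724A IRE1a, so it was higher in both IRE1a groups. Cd68 and Cd14, the bright genes of the list, differed from EGFP by 0.41 and 0.42 with wild-type IRE1a and by 0.29 and 0.88 with S724A. The median difference over the 6 genes was 0.02 with wild-type IRE1a (4 higher, 2 lower) and -0.01 with S724A (3 higher, 3 lower), and Adgre1 and Clec4f were lower than EGFP with both viruses, at -0.11 and -0.06 with wild-type IRE1a and -0.07 and -0.18 with S724A. The summed macrophage level was 12.20 to 12.70 with the control hairpin and 12.54 to 12.99 with the IRE1a hairpin. Of the 29 tested marker genes of hepatocytes and other liver or blood cells, 0 were called in any of the 4 comparisons. Over all genes 7.67% were called with wild-type IRE1a, 6.12% with S724A, 0% between them and 0.233% with the IRE1a hairpin. With S724A 5 endothelial genes were lower than EGFP and 0 higher (median -0.20), and 4 stellate genes lower and 0 higher (median -0.18). With wild-type IRE1a they were 3 higher and 2 lower, and 1 higher and 3 lower. The other lists had genes on both sides with S724A. No endothelial or stellate gene averaged above 6.27. The part of other cells in the differences below was not tested, and fewer cells of a type cannot be told apart from less RNA per cell.

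RefSeq promoter windows (assembly GRCm38.p6, 250 bases before to 50 after a start) were used for 7 of the 10 genes, in 10 windows. Those of Slc39a4, Slc39a6 and Slc39a14 were not used here. For the 10 genes any window on 1 chromosome was left out, while the shares over all genes kept that chromosome. The windows were searched on both strands for letters read by the unfolded protein response, by zinc and by cyclic AMP. The unfolded protein response element TGACGTGG was in 1 of the 10 windows, that of Slc39a13, and in 0.676% of 32851 windows over all genes. The longer ER stress element (ERSE) was in 0 of the 10 and in 0.119% of all. Its end CCACG, whose reverse complement also lies within TGACGTGG, was in 5 of the 10 and in 32.8% of all. The metal response cores TGCACNC and TGCGCNC were in 3 and 1 of the 10, and in 12.6% and 15.4% of all. The cyclic AMP response element TGACGTCA was in 0 of the 10 and in 1.79% of all. The 30 bases of Slc39a13 around its TGACGTGG match, chr2:91070289-91070318 on the minus strand from position -3 to 27 around the start, are shown with the capitals marking TGACGTGG at 9 to 16 and a TGCACNC match at 18 to 24. The second line is the stretch before Slc39a7 that lies outside annotated genes, 121 bases at chr17:34031691-34031811 on the minus strand. Its closing capital C is position -1, where a CCACG match on the other strand begins and runs on to position 4. The Slc39a13 stretch is shown because it holds the TGACGTGG match. The Slc39a7 stretch is shown because it lies outside annotated genes, and only Slc39a7 and Slc39a11 were searched for such a stretch. The matches are a description of letters.
Slc39a13: actgtcccgtgTGACGTGGcTGCACGCcgg
Slc39a7: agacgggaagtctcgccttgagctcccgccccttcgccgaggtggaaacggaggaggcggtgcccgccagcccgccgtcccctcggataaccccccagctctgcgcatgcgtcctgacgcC

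**Figure D1:**
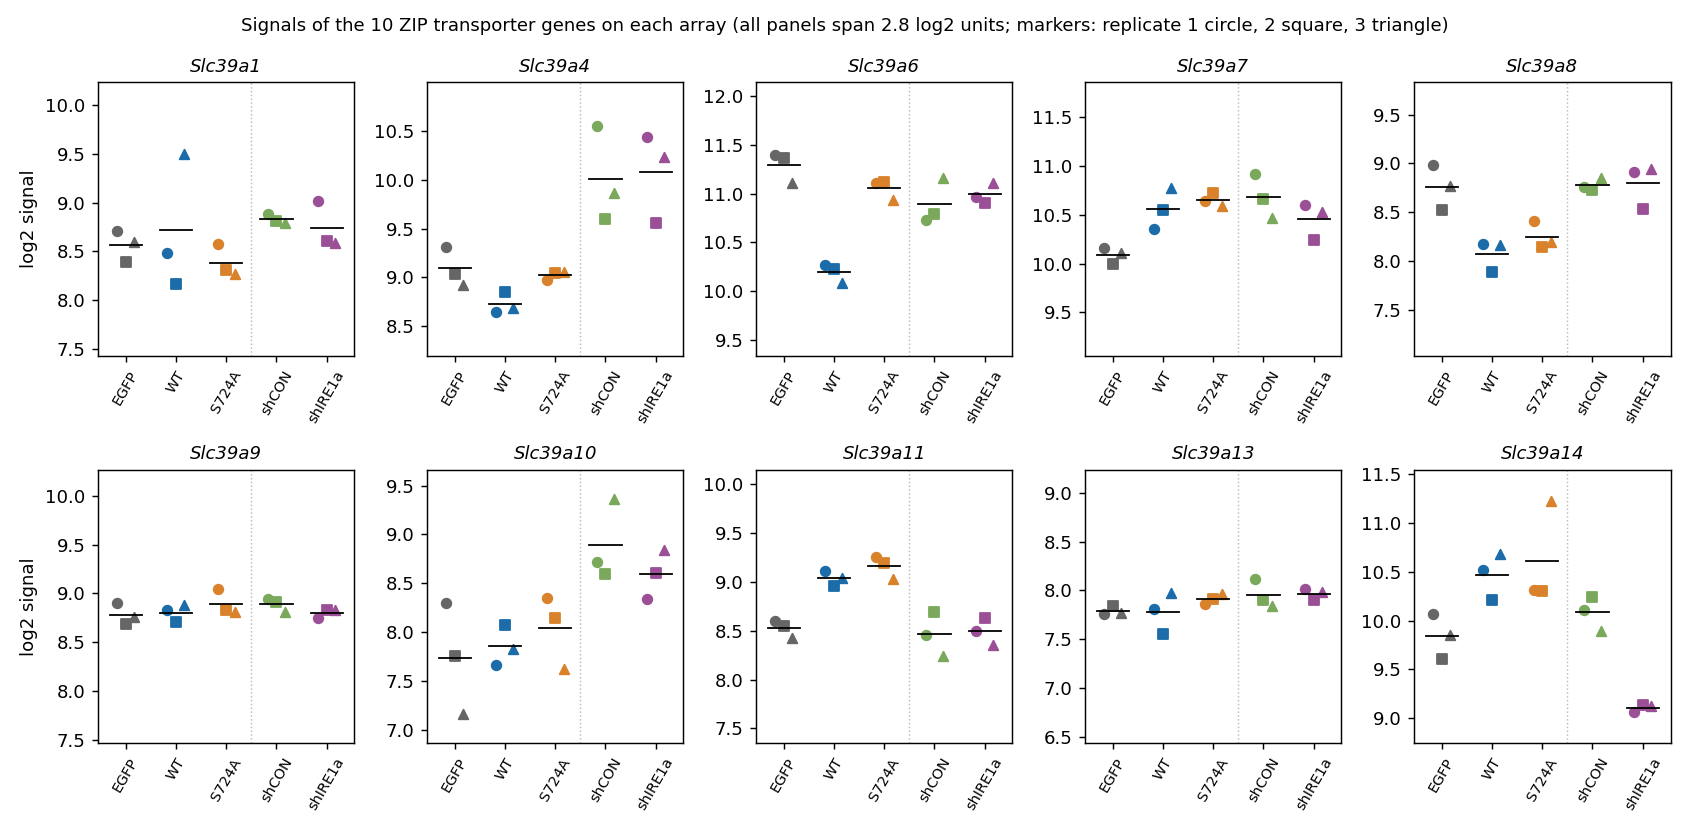
Log2 signal of the brightest probe set of each of the 10 ZIP genes on every array (points) with the group mean (bar), for the 5 groups of 3 arrays. Slc39a6 was at 10.09 to 10.26 in the wild-type IRE1a group and at 10.73 or above on the other 12 arrays; Slc39a14 was at 9.07 to 9.13 in the IRE1a hairpin group and at 9.61 or above on the others.

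With wild-type IRE1a, Slc39a6 and Slc39a8 fell and Slc39a11 rose; with S724A IRE1a, Slc39a7, Slc39a11 and Slc39a14 rose and Slc39a8 fell. Against EGFP, 3 of the 10 genes were called with wild-type IRE1a (1 rose, 2 fell), where 7.67% of all genes tested were called (5.08% rose, 2.59% fell). With S724A IRE1a 4 of 10 were called (3 rose, 1 fell), against 6.12% of all genes (3.87% rose, 2.25% fell). Between wild-type and S724A IRE1a 0 of 10 were called by limma, as were 0% of all genes; at an unadjusted p under 0.05 there were 997 genes, 6.12%, and 1 of the 10. With the IRE1a hairpin 0 of 10 were called, against 0.233% of all genes (0.0491% rose, 0.184% fell); at an unadjusted p under 0.05 there were 1260 genes, 7.73%, and 1 of the 10. A call is an adjusted p under 0.05 in the limma fit over all genes, and nothing is read from these shares because the genes were listed with them known. The comparisons of wild-type and S724A IRE1a with EGFP share the 3 EGFP arrays.

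The arrays of 2 groups did not overlap for 6 of the 10 genes with wild-type IRE1a (26.7% of all genes), for 5 with S724A (33.4%), for 2 between wild-type and S724A (13.3%) and for 1 with the IRE1a hairpin (11.5%). The median difference over the 10 genes was 0.07 with wild-type IRE1a and 0.12 with S724A, where the medians over all genes were 0.003 and -0.01. It was -0.14 between wild-type and S724A and -0.04 with the hairpin, where all genes had 0.03 and 0.02. Over the 19 tested probe sets, fitted with all 30046, 1 rose and 4 fell with wild-type IRE1a, where 5.85% of all probe sets were called (3.77% rose, 2.07% fell). With S724A 3 rose and 0 fell, against 4.88% of all (3.13% rose, 1.75% fell). Between the viruses and with the hairpin 0 of the 19 were called, against 0% and 0.17% of all. Arrays with the same replicate number within an arm deviated together, so a fit with that number as a block was also made. It called 5 members with wild-type IRE1a (3 rose, 2 fell), where it called 15.6% of all genes, 4 with S724A, where it called 14.4%, 1 between wild-type and S724A, where it called 0.0123%, and 1 with the hairpin, where it called 1.23%.

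**Figure D2:**
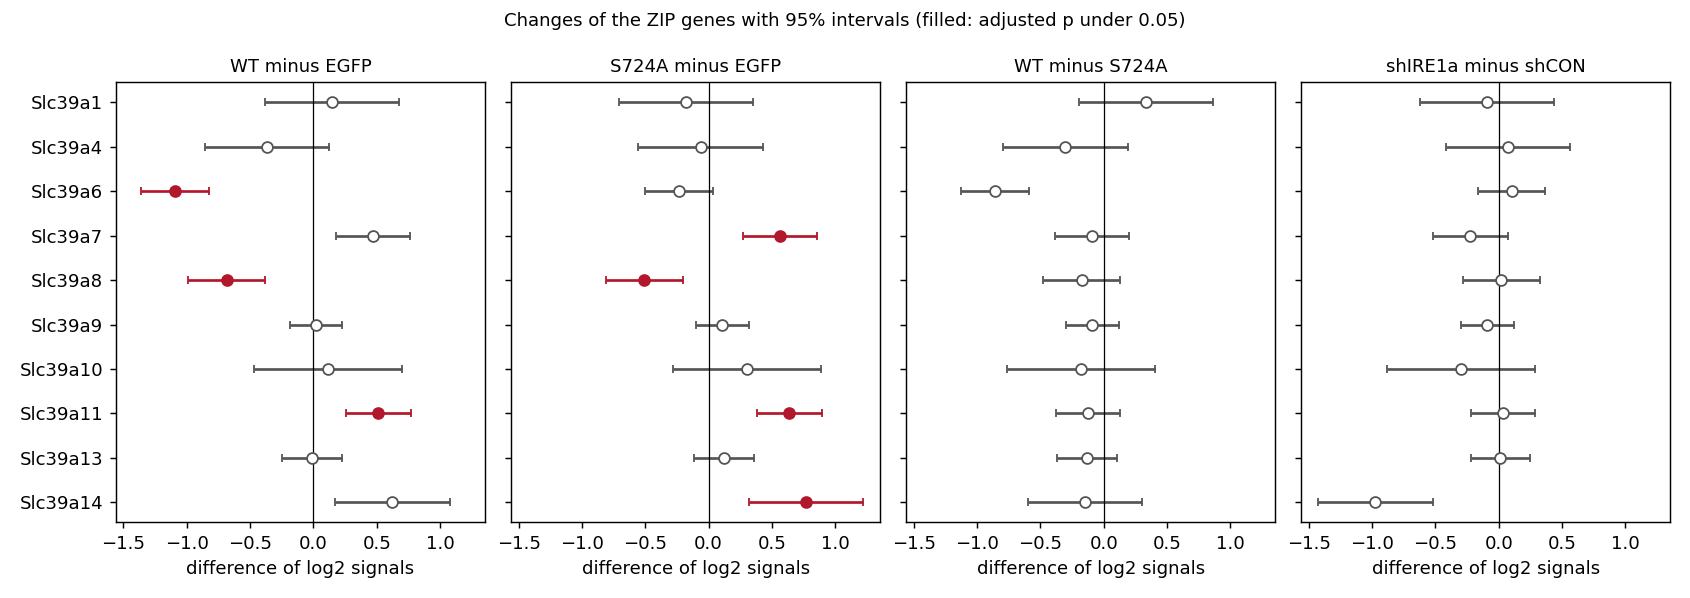
Difference of mean log2 signals for each ZIP gene in the 4 comparisons, with 95% intervals from the limma fit; filled points have an adjusted p under 0.05. Slc39a6 lies at -1.09 with wild-type IRE1a and at -0.24 with S724A, while Slc39a14 lies at -0.98 with the IRE1a hairpin with an open point.

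Slc39a4, Slc39a6 and Slc39a10 encode zinc importers of the plasma membrane and belong to the LIV-1 subfamily, as do Slc39a7, Slc39a8, Slc39a13 and Slc39a14. Slc39a6 encodes ZIP6, also called LIV-1, which pairs with ZIP10 at the cell surface. Its signals were 11.39, 11.37 and 11.11 with EGFP, 10.26, 10.23 and 10.09 with wild-type IRE1a and 11.11, 11.12 and 10.93 with S724A IRE1a. They were 10.73, 10.80 and 11.16 with the control hairpin and 10.97, 10.91 and 11.11 with the IRE1a hairpin. The 3 wild-type IRE1a arrays were thus the lowest of the 15. Against EGFP Slc39a6 fell by 1.09 ± 0.12, a 2.14-fold lower signal (adjusted p = 7.11e-05). With S724A IRE1a this brightest probe set was lower than EGFP by a difference of -0.24 ± 0.12 and overlapped it (adjusted p = 0.266). It was lower in 3 of 3 same-numbered pairs. With the IRE1a hairpin the difference was 0.10 ± 0.12 (adjusted p = 0.869).

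The direct comparison of the 2 IRE1a viruses put Slc39a6 at a difference of -0.86 ± 0.12 (95% interval -1.13 to -0.59), lower with wild-type IRE1a. The difference was -0.84, -0.89 and -0.85 in the 3 same-numbered pairs, so all 3 pairs showed it at a like size. Its p-value ranked 1 of 16294 genes, but it did not pass after adjustment (adjusted p = 0.109). It passed in the fit with the replicate block (adjusted p = 0.0111) and with trended variances, while leaving out single arrays gave adjusted p-values of 0.203 to 0.527. Slc39a6 has 4 probe sets. The 3 that passed the filter fell with wild-type IRE1a, by 1.09, 1.00 and 1.15 (adjusted p 0.000111, 0.00113 and 0.000349 over all probe sets tested). Between the IRE1a viruses these 3 were at -0.86, -0.61 and -0.87, none of them called. With S724A against EGFP they were at -0.24, -0.39 and -0.28, also without a call. The probe sets at -0.39 and -0.28 lay below EGFP without overlap. The last of the 3 was dim, at 4.03 to 5.47 over the 15 arrays, near the filter's 4. The remaining probe set reached a signal of 4 on 0 arrays.

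Slc39a4 encodes ZIP4, the zinc importer of the intestine whose loss causes acrodermatitis enteropathica. Its signals were 9.31, 9.04 and 8.93 with EGFP, 8.65, 8.85 and 8.69 with wild-type IRE1a and 8.98, 9.05 and 9.06 with S724A. They were 10.55, 9.60 and 9.86 with the control hairpin and 10.44, 9.56 and 10.23 with the IRE1a hairpin. The 6 arrays of the 72-hour arm were therefore all above the 9 arrays of the 48-hour arm. How often the arms were apart over all genes was not counted, so this is not read as a trait of the gene. Within arms Slc39a4 was called in 0 comparisons. The wild-type arrays all lay below the EGFP arrays, with a difference of -0.36 ± 0.23 (adjusted p = 0.396).

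Slc39a10 encodes ZIP10, the partner of ZIP6. It ranged from 7.16 to 8.35 over the 48-hour arrays and from 8.34 to 9.36 over the 72-hour arrays, with an overlap at the edge. Its EGFP arrays were spread widely, at 8.30, 7.75 and 7.16. Differences within arms were 0.12 ± 0.27 with wild-type IRE1a, 0.30 ± 0.27 with S724A and -0.30 ± 0.27 with the hairpin, none of them called, and its 2 probe sets gave 0 calls.

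Slc39a8 and Slc39a14 encode ZIP8 and ZIP14, which carry manganese and iron as well as zinc. Slc39a8 had signals of 8.98, 8.53 and 8.77 with EGFP, 8.18, 7.88 and 8.16 with wild-type IRE1a and 8.41, 8.14 and 8.20 with S724A. Both IRE1a groups lay below EGFP without overlap. Against EGFP it fell by 0.68 ± 0.14 with wild-type IRE1a, a 1.61-fold lower signal (adjusted p = 0.00767), and by 0.51 ± 0.14 with S724A (adjusted p = 0.0484). The S724A call was lost in 11 of 17 alternatives, which include leaving out EGFP replicate 1 or 3 or any S724A array, with adjusted p up to 0.155. The wild-type and S724A groups differed by -0.17 ± 0.14 (95% interval -0.48 to 0.13). In the hairpin arm Slc39a8 stood at 8.76, 8.73 and 8.85 with the control and 8.92, 8.53 and 8.95 with the IRE1a hairpin, a difference of 0.02 ± 0.14. Its other probe set was lower by -0.49 with wild-type IRE1a (adjusted p = 0.118) and by -0.20 with S724A (adjusted p = 0.535).

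Slc39a14 was the member with the largest difference in the hairpin arm and lay on opposite sides of the controls in the 2 arms. Its brightest probe set read 10.07, 9.61 and 9.85 with EGFP, 10.51, 10.21 and 10.68 with wild-type IRE1a and 10.31, 10.31 and 11.22 with S724A. It read 10.11, 10.24 and 9.90 with the control hairpin and 9.07, 9.13 and 9.12 with the IRE1a hairpin. Both IRE1a groups lay above EGFP, and the IRE1a hairpin arrays were the lowest 3 of the 15. Slc39a14 rose by 0.77 ± 0.21 with S724A, a 1.71-fold higher signal (adjusted p = 0.0453), with same-numbered differences of 0.24, 0.70 and 1.37. S724A replicate 3 stood above the others, and without it the difference was 0.47; the call was lost there, without EGFP replicate 2 or 3, and under 3 other alternatives, with adjusted p up to 0.194. With wild-type IRE1a the difference was 0.62 ± 0.21 (adjusted p = 0.0901; 0.0247 with the replicate block). The other 3 probe sets gave 0.22, 0.38 and 0.19 there, and the mean of the 4 was 0.36 (adjusted p = 0.226).

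With the IRE1a hairpin the Slc39a14 difference was -0.98 ± 0.21 (95% interval -1.43 to -0.52), a 1.97-fold lower signal that did not pass (adjusted p = 0.0954). The same-numbered differences were -1.04, -1.11 and -0.77, lower in 3 of 3, and the fit with the replicate block called it (adjusted p = 0.0191). The other 3 probe sets of the gene gave smaller values, -0.21, -0.44 and -0.11, none of them called, and the mean of the 4 was -0.43 (adjusted p = 0.485). All 4 were thus lower with the hairpin, and only the brightest by more than 0.5. With S724A IRE1a the same 3 gave 0.40, 0.52 and 0.78, and the last was called (adjusted p = 0.0418). The 3 genes whose signals followed the brightest Slc39a14 probe set most closely over the 15 arrays were Banp, Stard3nl and Pigu, with Pearson r of 0.905, 0.897 and 0.894. These values describe arrays that share arms and replicate numbers.

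**Figure D3:**
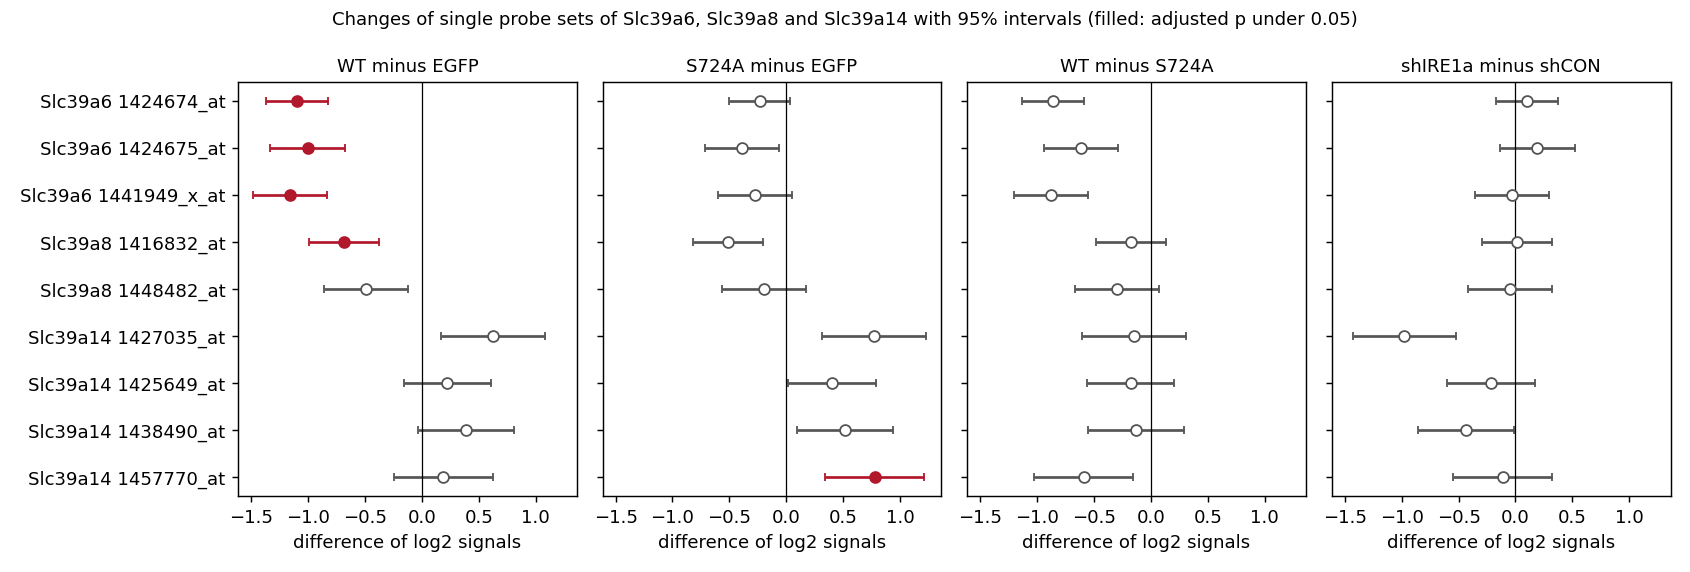
Difference of mean log2 signals for every tested probe set of Slc39a6, Slc39a8 and Slc39a14, in the 4 comparisons, with 95% intervals. Slc39a9 and Slc39a10 also have several probe sets and are not drawn. The 3 Slc39a6 probe sets lie together near -1 with wild-type IRE1a, while the 4 Slc39a14 probe sets spread from -0.98 to -0.11 with the IRE1a hairpin.

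The members of the endoplasmic reticulum and Golgi are Slc39a7, Slc39a9 and Slc39a13. Slc39a7 encodes ZIP7, which releases zinc from the endoplasmic reticulum. Its only probe set, which has the suffix that Affymetrix uses for probes shared by several transcripts, read 10.16, 9.997 and 10.11 with EGFP, 10.35, 10.55 and 10.78 with wild-type IRE1a and 10.64, 10.73 and 10.59 with S724A. Both IRE1a groups lay above EGFP without overlap. Slc39a7 rose by 0.56 ± 0.14 with S724A, a 1.48-fold higher signal (adjusted p = 0.0255). Leaving out EGFP replicate 2 or 3, or any 1 S724A array, ended that call (adjusted p up to 0.114). With wild-type IRE1a the difference was 0.47 ± 0.14, just short of the threshold (adjusted p = 0.0508; 0.0247 with the replicate block). The 2 IRE1a groups differed by -0.09 ± 0.14 (95% interval -0.39 to 0.20).

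In the hairpin arm Slc39a7 read 10.92, 10.67 and 10.47 with the control and 10.61, 10.24 and 10.53 with the IRE1a hairpin. The groups overlapped, with a difference of -0.22 ± 0.14 (adjusted p = 0.714). The genes that followed Slc39a7 most closely over the 15 arrays were Uck2, Exo5 and Dnajc24, with Pearson r of 0.942, 0.934 and 0.930.

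Slc39a9 encodes ZIP9, found in the Golgi. Its group means lay within 0.11 of each other, the narrowest range of the 10 genes, with single arrays from 8.69 to 9.04. Its 3 probe sets gave 0 calls. Slc39a13 encodes ZIP13, whose loss causes a disorder of connective tissue. It ranged from 7.56 to 8.12, and its differences from EGFP were -0.01 ± 0.11 with wild-type IRE1a and 0.12 ± 0.11 with S724A. The S724A arrays of Slc39a13 (7.86, 7.92 and 7.96) lay just above those with EGFP (7.76, 7.84 and 7.77), without a call (adjusted p = 0.523). Its hairpin difference was 0.01 ± 0.11. Slc39a13 had 0 calls, and any part of the TGACGTGG match shown above in its signals was not tested.

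The remaining members are Slc39a11 and Slc39a1. Slc39a11 encodes ZIP11, which forms a subfamily of its own. It read 8.60, 8.55 and 8.43 with EGFP, 9.12, 8.96 and 9.04 with wild-type IRE1a and 9.26, 9.19 and 9.04 with S724A. The 6 IRE1a arrays all lay above the 3 EGFP arrays. Slc39a11 rose by 0.64 ± 0.12 with S724A, a 1.55-fold higher signal (adjusted p = 0.00491), and by 0.51 ± 0.12 with wild-type IRE1a, 1.43-fold (adjusted p = 0.0158). The wild-type call was lost without EGFP replicate 3 or wild-type replicate 1 and with quantile normalization, with adjusted p up to 0.0704. The 2 IRE1a groups differed by -0.12 ± 0.12 (95% interval -0.38 to 0.13). With the hairpins it read 8.45, 8.69 and 8.24 in the control and 8.50, 8.63 and 8.36 with the IRE1a hairpin, a difference of 0.03 ± 0.12.

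Slc39a1 encodes ZIP1, a zinc importer of the plasma membrane found in most tissues; it has a pseudogene, Slc39a1-ps, and whether its probe set also reads that copy was not tested. It read 8.71, 8.39 and 8.60 with EGFP, 8.48, 8.17 and 9.49 with wild-type IRE1a and 8.58, 8.31 and 8.27 with S724A. Wild-type replicate 3 was the highest of the 15 arrays. The wild-type difference from EGFP was 0.15 ± 0.25 (adjusted p = 0.787), and it was -0.24 without that array. Slc39a1 was called in 0 of the 4 comparisons.

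The zinc exporters, the ZnT proteins, had 10 of 10 genes tested. With wild-type IRE1a 2 of the 10 rose and 2 fell, beside 5.08% and 2.59% of all genes. With S724A 3 rose and 0 fell, beside 3.87% and 2.25%, and 0 were called between the IRE1a viruses or with the hairpin. Slc30a7, which loads the Golgi and secretory vesicles with zinc, read 8.75, 8.64 and 8.74 with EGFP, 9.65, 9.73 and 9.80 with wild-type IRE1a and 9.59, 9.86 and 9.87 with S724A. It rose by 1.01 ± 0.14 and by 1.06 ± 0.14 (adjusted p = 0.000468 and 0.000383), more than any ZIP gene rose. Slc30a5, which works in the same compartments, rose by 0.56 ± 0.09 and 0.52 ± 0.09 (adjusted p = 0.00141 and 0.00272). Slc30a6, the partner of Slc30a5, rose by 0.46 ± 0.12 with S724A (adjusted p = 0.0407, lost in 7 of 17 alternatives) and differed by 0.05 with wild-type IRE1a. Slc30a6 differed by -0.40 ± 0.12 between wild-type and S724A IRE1a, without a call (adjusted p = 0.801).

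Slc30a1, the exporter of the plasma membrane, fell by 0.68 ± 0.19 with wild-type IRE1a (adjusted p = 0.0463). Slc30a4, found in vesicles, fell by 0.51 ± 0.15 (adjusted p = 0.0463). These calls were lost in 7 and 8 of 17 alternatives, single arrays of both groups among them, with adjusted p up to 0.167 and 0.147. In the limma fit of all probe sets the brightest Slc30a1 probe set was not called (adjusted p = 0.0565). The other Slc30a1 probe set fell by 0.70 there (adjusted p = 0.0245). Slc30a1 and Slc30a4 were at -0.37 and -0.34 with S724A, not called. The other exporters with wild-type IRE1a ranged from Slc30a10 at -0.30, through Slc30a3 at -0.26 and Slc30a9 at -0.09, to Slc30a2 at 0.20 and Slc30a8 at 0.20, none called. The median over the 10 exporters was -0.02 with wild-type IRE1a and -0.17 with S724A.

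Of the metallothioneins and Mtf1, the zinc-sensing transcription factor that drives them, 1 of 5 was called with wild-type IRE1a, beside 7.67% of all genes, and 0 in the other comparisons. Mt4 read 6.27, 6.59 and 6.39 with EGFP and 7.24, 7.59 and 7.99 with wild-type IRE1a. It rose by 1.19 ± 0.33 (adjusted p = 0.0405), a call lost in 6 of 17 alternatives (adjusted p up to 0.153), 5 of which leave out 1 array: EGFP replicate 1, 2 or 3 or wild-type replicate 2 or 3. Mt1 and Mt2, the main metallothioneins of the liver, differed by 0.32 ± 0.11 and 0.27 ± 0.10 with wild-type IRE1a, without overlap and without a call (adjusted p = 0.108 and 0.129). With S724A Mt1 and Mt2 were at 0.20 and 0.18, and with the hairpin at -0.12 and -0.15, none called. A dimmer Mt1 probe set gave 0.65 with wild-type IRE1a, 0.52 with S724A and -0.54 with the hairpin, also without a call. Mt3 and Mtf1 differed from EGFP by 0.07 and -0.02 with wild-type IRE1a.

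**Figure D4:**
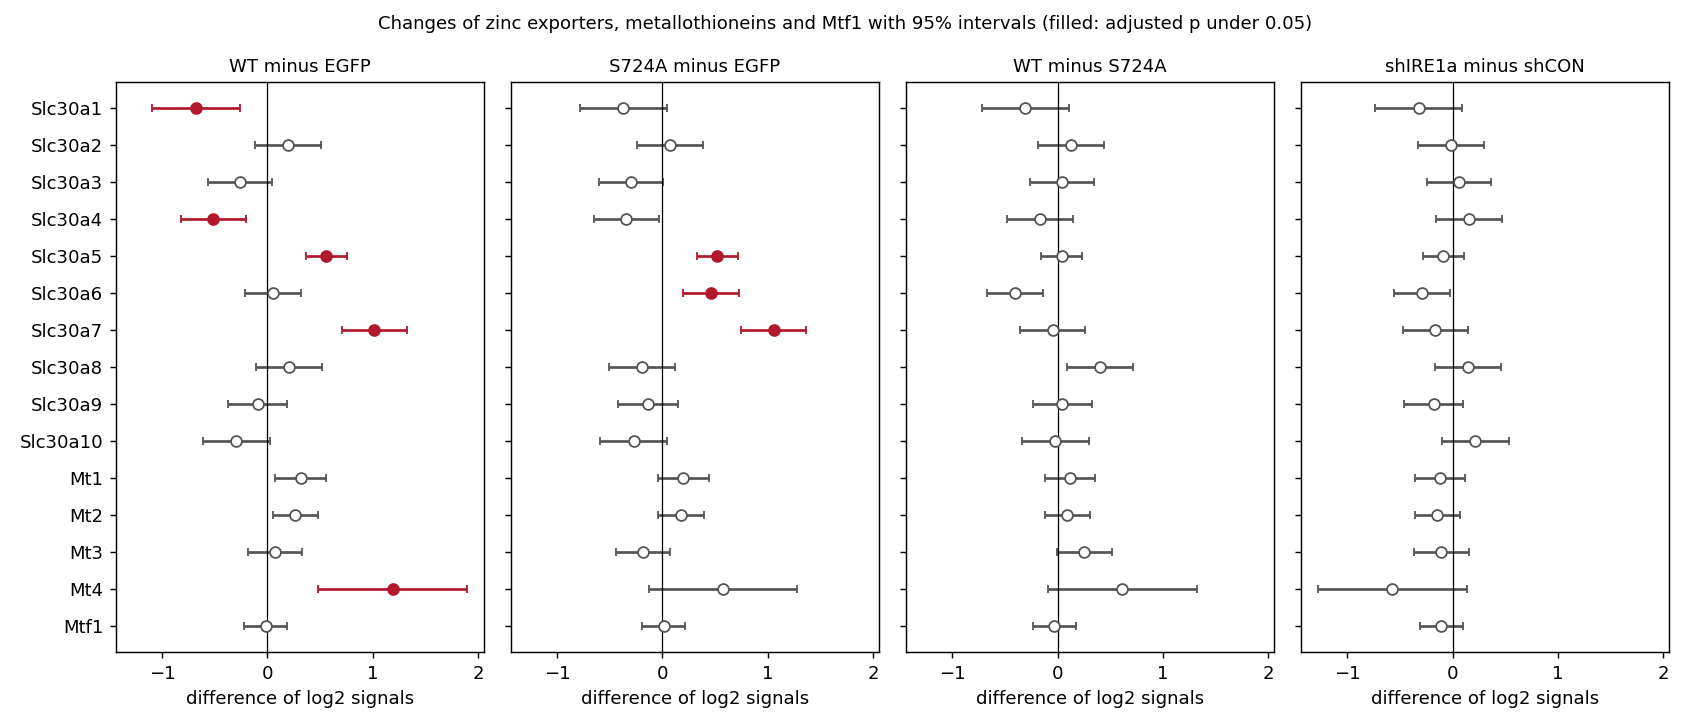
Difference of mean log2 signals for the zinc exporters (Slc30a genes), the metallothioneins and Mtf1 in the 4 comparisons, with 95% intervals; filled points have an adjusted p under 0.05. Slc30a7 lies near 1 with both IRE1a viruses (1.01 and 1.06), and the hairpin comparison holds no filled point.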

How the data were processed

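Total RNA of the 15 hepatocyte cultures was hybridised to 15 one-colour arrays. The authors made the deposited log2 signals with GCRMA, per the submitters' processing notes (the log2 scale was read from the values; the GCRMA version is not stated). Of 45101 probe sets, 64 controls, 932 with several symbols and 9160 with none were left out, using GEO's platform annotation. Each gene was represented by its brightest probe set.

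One limma model (limma 3.58.1, R 4.3.3) of 5 group means was fitted to the 15 arrays, with 2-sided tests and Benjamini-Hochberg adjustment over 16294 genes at 0.05; probe sets were fitted the same way over 30046. The number of arrays limits precision: the median half-width of a 95% interval was 0.30. P-values rest on the spread between cultures of 3 experiments within a group, pooled over the 5 groups. The replicate number was left out of this fit, so shifts shared by same-numbered arrays stay in that spread. A short limma fit of the same kind was tested on simulated arrays with independent noise. The replicate block and the alternatives were not tested that way.

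Replicate numbers in the titles paired arrays within an arm: residuals correlated at 0.20 to 0.69 in all 12 same-numbered pairs within an arm, and exceeded 0.1 in 4 of 18 across arms. No 2 arrays were identical. Members and lists were chosen with earlier results of these data known. Named were all 10 members, the unlisted ZIP genes, Ern1, all tested exporters, metallothioneins and Mtf1, called iron and interleukin-6 genes (up to 4 a comparison) and the 3 most alike genes. The uncalled interleukin-6 genes are named only for the order of their S724A arrays or as receptor and signalling genes. Alternatives covered normalization, filters, probe sets, variance models, arrays fitted, the replicate block and leaving out each array.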

Additional observations from a re-analysis of the deposited data

How the results depend on the processing

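The 7 called ZIP changes were recomputed under 17 alternatives each, giving 119 values: 94 stayed called, 25 lost the call and 0 changed sign. The 33 uncalled differences gave 561 values, of which 10 passed the threshold and 30 had the other sign while still uncalled. Kept under every alternative run were the calls of Slc39a6 and Slc39a8 with wild-type IRE1a and of Slc39a11 with S724A. The count of called members with wild-type IRE1a was 5 with the replicate block instead of 3. With S724A it was 2 when all probe sets were fitted together and 2 when only the 6 arrays of the comparison were fitted, instead of 4, and 1 to 3 when single arrays were left out; without EGFP replicate 3 or S724A replicate 3 it was 1. Between wild-type and S724A IRE1a it was 1 with trended variances and 1 with the replicate block, instead of 0, and Slc39a6 was the gene in both. With the IRE1a hairpin it was 1 with the replicate block, Slc39a14. Over all genes the replicate block called 2539 with wild-type IRE1a, 2347 with S724A, 2 between them and 200 with the hairpin, where the model without it called 1250, 997, 0 and 38. Fewer arrays are fitted when one is left out; the cause of the other losses was not tested. Normalization alternatives moved the median of all genes by -0.07 to 0.03.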

Other observations

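Of 15 tested genes of iron and manganese handling, 2 fell and 0 rose with each IRE1a virus against EGFP, beside 2.59% and 5.08% of all genes with wild-type IRE1a and 2.25% and 3.87% with S724A, and 0 were called between the viruses or with the hairpin. Aco1, cytosolic aconitase that becomes the iron regulatory protein IRP1 when it lacks its iron-sulfur cluster, read 11.09, 11.20 and 11.41 with EGFP, 10.22, 10.21 and 10.39 with wild-type IRE1a and 9.93, 9.74 and 10.19 with S724A. It fell by 0.96 ± 0.15 and by 1.28 ± 0.15 (limma adjusted p = 0.00123 and 0.000118). With its probe sets averaged, Aco1 fell by 0.65 and by 0.81. Tmprss6, a hepatocyte protease that restrains hepcidin, fell by 0.90 ± 0.12 and 0.95 ± 0.12 (adjusted p = 0.000378 and 0.000282).

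Of 13 genes of the interleukin-6 acute phase response, among them the receptor and signalling genes Il6ra, Il6st and Stat3, 1 was called with S724A, beside 6.12% of all genes, and 0 in the other comparisons. Saa3 rose by 2.54 ± 0.66 with S724A (adjusted p = 0.0362), where its arrays read 9.91, 10.44 and 13.59 against 9.11, 8.34 and 8.87 with EGFP. Without S724A replicate 3 the difference was 1.41, and the call was lost under 5 of 17 alternatives, among them leaving out any EGFP array. S724A replicate 3 was also the highest Slc39a14 array. Within the S724A group it was the highest array for Socs3, Lcn2, Hp and Fgb as well. It was not the highest for Saa1, Saa2, Fga, Fgg, Orm1, Stat3, Il6ra or Il6st. A link between these genes and Slc39a14 was not tested.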
